A study of Mus musculus with 16 samples.

Results

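Rab proteins are small GTPases that sit on the membranes of particular organelles and direct the budding, transport and fusion of vesicles. Exchange factors load them with GTP, and proteins with a TBC domain, among them the TBC1D family, speed the hydrolysis of that GTP and so switch most of their target Rabs off. T cells use this system to recycle antigen receptors, to deliver receptors to the contact with an antigen-presenting cell and to secrete cytokines. The genes described here were those whose symbol is Rab or Tbc1d followed by a number. The array held 82 of them, 57 Rab and 25 Tbc1d genes with 122 probes. A gene counted as detected when the scanner software gave 1 of its probes a detection p under 0.05 on at least 4 of 16 arrays, and the brightest such probe stood for it. This left 58 detected members, 39 Rab and 19 Tbc1d genes, of 8480 genes tested.

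The samples were CD4+ T cells from 4 MALT1-deficient C57BL/6 mice. MALT1 is a protease and scaffold that carries antigen receptor signals towards NF-kB, and all 4 groups lacked the mouse's own MALT1. Retroviruses gave each mouse's cells a mock construct or 1 of 2 MALT1 splice forms, named isoform A and isoform B, and cells of these 3 kinds were stimulated through CD3 and CD28 for 2.5 h. Isoform A cells were also left unstimulated, and no unstimulated isoform B or mock cells were analysed here. Each group therefore held 4 arrays, 1 per mouse, and in such bulk RNA fewer cells that express a gene and less RNA per cell cannot be told apart. A retroviral transgene is not under the control of the natural Malt1 promoter, which limits the model.

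Median raw intensities were 121.8 to 138.8 per array, and 45 to 50 members were detected on each stimulated array against 54 to 56 on each unstimulated one. The brightest raw signal was 34329 to 38404 on the arrays of mice 1 and 2 and 41735 to 43710 on those of mice 3 and 4, so results are also given within these pairs of mice. The array's 1 Malt1 probe was detected on 4 of 16 arrays at raw signals of 120.1 to 140.4 and did not separate the groups. Of the T cell markers, 9 of 9 (Cd4 and Cd3e among them) were detected on all 4 arrays of every group. Of 7 macrophage and dendritic cell markers, Ctss and Fcer1g were detected on all 4 arrays of every group and Cd14, Lyz2, Itgam, Itgax and Adgre1 on none. Of 9 CD8 and cytotoxic markers, Cd8b1, Prf1, Klrd1 and Nkg7 were detected on all 4 arrays of every group and Cd8a, Gzmb and Ncr1 on none.

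Of the 24 genes not detected on enough arrays, 13 were detected on no array, among them Rab2b, Rab30, Rab33a, Rab44, Tbc1d8 and Tbc1d12. Rab20, Rab34, Rab39b and Rab3c lay just under the rule with 3 arrays each. Among the detected members, 41 passed on all 16 arrays. Rab3a, Rab6b, Rab37 and Tbc1d2 passed on the 4 unstimulated arrays alone, so they had to differ between stimulated and unstimulated cells. Tbc1d21 and Tbc1d8b passed on no unstimulated array. Counts of stimulation changes are therefore also given for the 48 members detected on at least 8 arrays, a number that the 4 unstimulated arrays alone cannot reach.

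The first comparison asked how the members responded to 2.5 h of CD3 and CD28 stimulation in isoform A cells. Of the 48 members detected on at least 8 arrays, 25 (52.1%) fell, led by Tbc1d10c, Rab19 and Rab3d, against 37.4% of genes. Every class held some of them. By class, 9 of 15 TBC1D genes and 6 of 13 Rabs of early and recycling endosomes fell. So did 2 of 6 late endosomal, 4 of 8 endoplasmic reticulum and Golgi, 2 of 4 secretory and 2 of 2 other Rabs. A small group with Rab8b, Rab5a and Rab7 rose. Of 58 detected members, 37 (63.8%) passed an adjusted p of 0.05 in limma's moderated test, 7 higher and 30 lower after stimulation. Over all 8480 genes 66.4% passed, so the share of members that changed was near the background. The split of directions was 12.1% of members higher and 51.7% lower, against 29.6% and 36.8% of all genes. With detection on at least 8 arrays, 32 of 48 members passed, 7 higher (14.6%) and 25 lower (52.1%), against 71.1% of 7346 genes, 33.7% higher and 37.4% lower. The median member changed by -0.31 on the log2 scale and the median gene by -0.02. The member median was -0.07 over all 82 genes with no detection filter, -0.17 with no background correction and -0.64 under median scaling. With arrays scaled to equal medians in place of equal distributions, the median gene moved to -0.223, the member split to 2 higher and 35 lower, and that of all genes from 2512 and 3122 to 1651 and 3655. Within mice 1 and 2 alone the split of members was 5 higher and 28 lower, against 2352 and 2926 of all genes, and within mice 3 and 4 alone it was 7 and 27, against 2287 and 2790. The 4 stimulated and 4 unstimulated arrays did not overlap for 33 members (56.9%), 5 higher and 28 lower, against 61.5% of all genes, 27.3% higher and 34.2% lower. A called change of at least 1 log2 unit was seen in 14 members (24.1%), against 29.9% of all genes. With detection on at least 8 arrays the groups did not overlap for 28 of 48 members (58.3%), against 65.7% of genes, and 11 members (22.9%) changed by at least 1, against 32.3%.

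**Figure D1:**
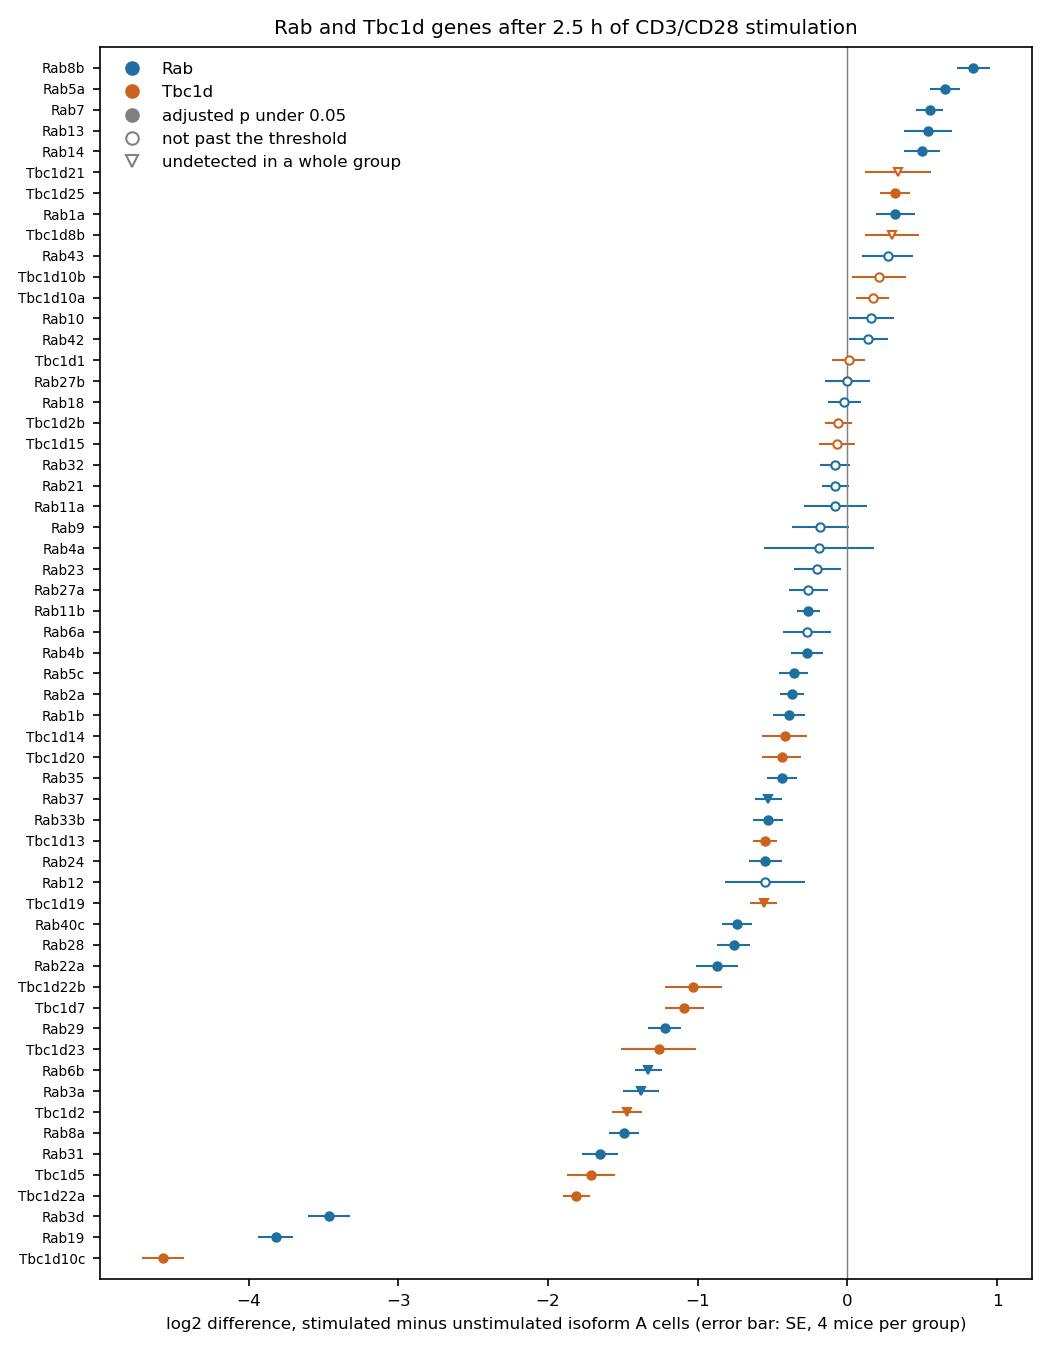
Log2 difference between stimulated and unstimulated isoform A cells (x axis) for the 58 detected members, with SE bars from a fit of 4 mice per group, filled where the adjusted p was under 0.05. The 7 filled points right of 0 lie between 0.32 and 0.84, with Tbc1d25 and Rab1a turning to the other side under median scaling, while 30 filled points lie left of 0 and reach -4.57. Triangles are the 7 members undetected on every array of 1 of the groups, whose position is not a measured change.

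Of 7 measured Rabs of secretory vesicles 1 rose and 4 fell, with a median of -0.53. Of the 4 detected on at least 8 arrays 1 rose (25%) and 2 fell (50%), with a median of -0.87. Of all genes so detected, 33.7% rose and 37.4% fell. Rab3d, a Rab of secretory granules, read 8.92, 9.01, 8.78 and 8.94 log2 units in unstimulated cells of mice 1 to 4. After stimulation its levels in isoform A cells were 5.62, 4.97, 5.66 and 5.55. All stimulated arrays thus lay far below the unstimulated ones, mouse 2 lowest, and the gene was detected on 3 of the 4 stimulated arrays. The difference was -3.46 ± 0.14 (SE, n = 4; 11-fold; adjusted p = 7.57e-13 by limma). It ranged from -3.8 to -1.97 over the alternatives in processing. Rab3a, its relative best known from synaptic vesicles, was below detection on every stimulated array and at least 1.93-fold lower there, and Rab37, another secretory granule Rab, was at least 1.01-fold lower. Both were kept through the unstimulated arrays alone, so no test is given. Rab27a, which docks lytic granules at the membrane of cytotoxic T cells, stood at -0.26 ± 0.13 and missed the threshold (adjusted p = 0.0877 by limma), but passed when mouse was added as a block (adjusted p = 0.009).

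Rab8a and Rab8b, close relatives that both carry vesicles from the Golgi and endosomes to the plasma membrane, changed in opposite directions. The Rab8a probe read 12.4, 12.24, 12.14 and 12.1 in unstimulated cells of mice 1 to 4 and 10.93, 10.7, 10.61 and 10.68 in stimulated isoform A cells. The Rab8b probe read 12.35, 12.42, 12.55 and 12.5 before and 13.24, 13.21, 13.43 and 13.28 after stimulation. Neither gene's groups overlapped, and the order was the same in all 4 mice. Rab8a fell by 1.49 ± 0.10 log2 units (SE, n = 4; 2.81-fold; adjusted p = 5.69e-10 by limma). Rab8b rose by 0.84 ± 0.11 (1.79-fold; adjusted p = 2.96e-06 by limma). The change of Rab8a minus that of Rab8b within a mouse was -2.33 ± 0.09 (SD, n = 4). The second detected probe of each gene moved the same way, by -1.05 for Rab8a and 1.09 for Rab8b (adjusted p over the 12344 kept probes = 4.98e-07 and 3.37e-09).

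Rab5a and Rab5c, both Rabs of early endosome fusion, also parted. The Rab5a probe read 8.56, 8.4, 8.62 and 8.5 in unstimulated cells and 9.2, 9.39, 8.95 and 9.17 in stimulated isoform A cells, without overlap. The Rab5c probe read 11.38, 11.4, 11.13 and 11.24 before and 10.96, 11.09, 10.67 and 11 after stimulation. Every stimulated array of Rab5c was below every unstimulated one, by a small margin. Rab5a rose by 0.65 ± 0.10 (1.57-fold; adjusted p = 2.7e-05 by limma), a call lost under median scaling (0.32, adjusted p = 0.103). Rab5c fell by 0.36 ± 0.10 (1.28-fold; adjusted p = 0.00327 by limma), a call also lost under median scaling (-0.32, adjusted p = 0.115) and in mice 3 and 4 alone (-0.35, adjusted p = 0.0622). The within-mouse difference between the 2 changes was 1.01 ± 0.22 (SD, n = 4).

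These pairs were picked from 13 pairs of like-named members after their values were seen, so their differences carry no test. A further pair was Rab1a and Rab1b, which both act between the endoplasmic reticulum and the Golgi. Rab1a read 8.28 ± 0.10 (SD, n = 4) before and 8.6 ± 0.26 after stimulation, and its groups overlapped. It passed at 0.32 ± 0.13 (SE; adjusted p = 0.0458 by limma), lost the call without mouse 1 (0.24), mouse 2 (0.32) or mouse 4 (0.31), and turned to -0.07 under median scaling. Rab1b fell by 0.39 ± 0.11 (adjusted p = 0.00363 by limma) on the brightest probe, while its second probe, on 15 of 16 arrays, stood at -0.04 ± 0.19. Tbc1d10a and Tbc1d10b, relatives of Tbc1d10c that act on Rab27 and Rab35, stood at 0.17 ± 0.11 and 0.21 ± 0.18, neither past the threshold. Tbc1d2b stood at -0.06 ± 0.09, not past the threshold, and its relative Tbc1d2 was undetected after stimulation.

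**Figure D2:**
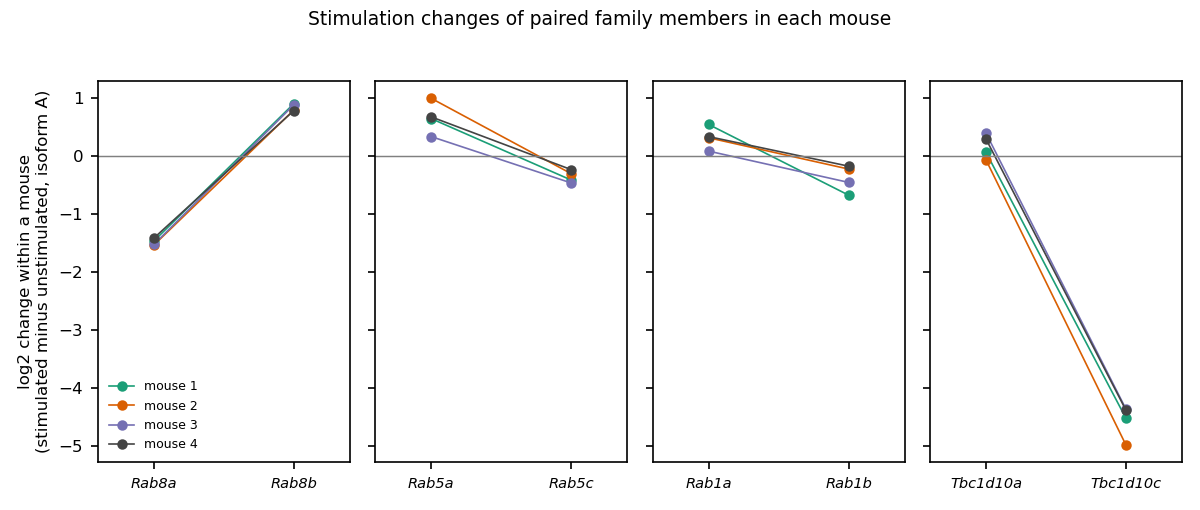
Change of 4 pairs of related members within each mouse (y axis, log2 of stimulated over unstimulated isoform A cells), with 1 coloured line per mouse. In all 4 mice Rab8a lies below 0 and Rab8b above it, and Rab5a lies above Rab5c and Rab1a above Rab1b; the Rab1a level relative to 0 depends on the scaling of the arrays.

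The promoters of both pairs are shown because the members of each pair moved apart. Each sequence is the 250 bases before the RefSeq transcription start, 5′ to 3′ on the gene's strand, in build GRCm38.p6. Capitals mark matches on either strand to GGGCGG (the GC box), TGACGTCA (the cAMP response element), CACGTG (the E-box) or the letters CCAAT.
Rab8a, chr8:72160950-72161199, plus strand: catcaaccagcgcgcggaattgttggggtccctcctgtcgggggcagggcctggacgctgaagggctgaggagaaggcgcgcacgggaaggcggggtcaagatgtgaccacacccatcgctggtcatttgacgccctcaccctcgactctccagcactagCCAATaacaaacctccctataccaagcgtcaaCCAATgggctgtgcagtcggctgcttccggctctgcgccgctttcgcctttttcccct
Rab8b, chr9:66919706-66919955, minus strand: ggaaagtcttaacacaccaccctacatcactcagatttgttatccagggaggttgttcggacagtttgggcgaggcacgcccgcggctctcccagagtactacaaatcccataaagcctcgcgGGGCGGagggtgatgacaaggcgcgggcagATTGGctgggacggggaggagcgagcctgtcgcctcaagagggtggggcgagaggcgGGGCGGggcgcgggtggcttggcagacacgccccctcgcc
Rab5a, chr17:53478984-53479233, plus strand: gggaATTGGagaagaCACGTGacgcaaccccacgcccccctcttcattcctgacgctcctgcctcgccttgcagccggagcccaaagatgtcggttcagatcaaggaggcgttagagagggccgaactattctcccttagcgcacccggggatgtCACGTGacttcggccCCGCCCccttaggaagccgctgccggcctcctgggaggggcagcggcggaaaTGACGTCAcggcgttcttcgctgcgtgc
Rab5c, chr11:100738216-100738465, minus strand: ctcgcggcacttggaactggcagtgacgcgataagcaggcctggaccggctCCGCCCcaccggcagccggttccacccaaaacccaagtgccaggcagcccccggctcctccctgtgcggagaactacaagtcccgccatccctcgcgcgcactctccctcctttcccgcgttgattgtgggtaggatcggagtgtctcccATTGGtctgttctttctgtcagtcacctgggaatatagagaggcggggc

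Rab8a had 2 CCAAT matches, ending 85 and 53 bases before the start, and no GC box, whereas Rab8b had 2 GC boxes and 1 CCAAT. The Rab8a window also held 1 match to the ETS letters CCGGAAG, left in lower case, ending 28 bases before the start. Rab5a held 2 E-boxes and 1 cAMP response element ending 20 bases before the start, besides a GC box and a CCAAT, and Rab5c held 1 GC box and 1 CCAAT. RefSeq promoter windows were found for 51 of 58 members, 64 windows of 250 bases in all. The background was all 32851 windows, not limited to genes detected here. The shares below therefore do not set the members against other detected genes. Rab2a, Rab4a, Rab18, Rab27b, Rab37, Tbc1d10c and Tbc1d19 are named only. A GC box occurred in 42 member windows (65.6%) against 32.7% of all windows, and the median GC content was 61.6% against 52.4%. CCAAT occurred in 39.1% against 33.8%, CACGTG in 10.9% against 6.02% and TGACGTCA in 1.56% against 1.55%. TATAAA occurred in 4.69% against 12.4% and the AP-1 letters TGANTCA in 1.56% against 6.75%. The NF-kB motif occurred in 12.5% against 7.25%, the ETS letters CCGGAAG in 9.38% against 6.91% and the EGR letters GCGNGGGCG in 6.25% against 4.7%. Windows of 1 gene can overlap, GC boxes and EGR matches can share bases, and a match is letters only, not a bound site.

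Of 13 measured Rabs of early and recycling endosomes 3 rose (23.1%) and 6 fell (46.2%), with a median of -0.19. Of genes detected on at least 8 arrays, as these 13 were, 33.7% rose and 37.4% fell. Rab14, which moves cargo between the Golgi and endosomes, read 9.7 ± 0.18 (SD, n = 4) before and 10.2 ± 0.24 after stimulation and rose by 0.50 ± 0.12 (SE; adjusted p = 0.00128 by limma). Rab13, which returns cargo to the plasma membrane, read 5.21 ± 0.29 before and 5.75 ± 0.25 after, with overlapping groups. Its rise of 0.54 ± 0.16 (adjusted p = 0.00746 by limma) lost the call without mouse 4 (0.48, adjusted p = 0.0618 by limma) and in mice 1 and 2 alone. Under median scaling neither call held, at 0.35 for Rab14 and 0.22 for Rab13 (adjusted p = 0.124 and 0.342). Rab31, which works between the trans-Golgi network and endosomes, read 7.03, 6.75, 7.04 and 6.75 in unstimulated and 5.13, 5.36, 5.18 and 5.31 in stimulated isoform A cells. Those groups lay far apart, and Rab31 fell by 1.65 ± 0.12 (3.13-fold; adjusted p = 9.68e-10 by limma). Over the alternatives in processing Rab31 stood between -2.1 and -0.65. Its close relative Rab22a fell by 0.87 ± 0.14, Rab35 by 0.44 ± 0.10 and Rab11b, a Rab of slow recycling, by 0.26 ± 0.08. The Rab11b call was lost without mouse 3 (-0.20, adjusted p = 0.0845), in mice 1 and 2 alone (-0.17, adjusted p = 0.243) and under median scaling (-0.08, adjusted p = 0.669 by limma), and the Rab35 call in mice 3 and 4 alone (-0.25, adjusted p = 0.118 by limma). Rab4b, a Rab of fast recycling, fell by 0.27 ± 0.11 with all mice, and left the threshold without mouse 1 (-0.23), mouse 2 (-0.21) or mouse 4 (-0.29). Rab10, Rab11a, Rab21 and Rab4a did not pass, although a second probe of Rab10 did at 0.69 ± 0.20 (adjusted p over the kept probes = 0.0052).

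Of 6 measured late endosomal and lysosomal Rabs 1 rose (16.7%) and 2 fell (33.3%). Of genes detected on at least 8 arrays, as these 6 were, 33.7% rose and 37.4% fell. Rab7, the Rab of late endosomes and of their fusion with lysosomes, was the member of this class that rose. It read 10.91, 10.86, 10.7 and 10.99 before and 11.29, 11.35, 11.47 and 11.53 after stimulation, so that no arrays overlapped. The rise was 0.55 ± 0.09 (SE, n = 4; 1.46-fold; adjusted p = 5.97e-05 by limma), and 2 further Rab7 probes rose by 1.76 and 1.16. Rab29, which recruits the kinase LRRK2 to membranes, fell by 1.22 ± 0.11 (2.33-fold), and Rab24, a Rab linked to autophagy, by 0.55 ± 0.11, the latter call lost in mice 3 and 4 alone (-0.36, adjusted p = 0.0711 by limma). Rab12 levels in stimulated isoform A cells were 5.87 and 6.18 in mice 1 and 2 but 4.66 and 4.62 in mice 3 and 4, against 5.79 to 5.94 in unstimulated cells. It was detected on 2 of those 4 stimulated arrays and missed the threshold (adjusted p = 0.0862 by limma).

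Of 9 measured Rabs of the endoplasmic reticulum and Golgi, 1 rose (Rab1a) and 5 fell, with a median of -0.37. Rab19, a little-studied Rab placed at the Golgi, read 8.72, 8.88, 8.88 and 8.84 in unstimulated and 5.03, 4.98, 4.92 and 5.09 in stimulated isoform A cells. The stimulated values lay close to background, with 2 of 4 arrays above detection, and far below the unstimulated ones. Rab19 fell by 3.82 ± 0.12 (14.2-fold; adjusted p = 2.9e-14 by limma). A second, dimmer Rab19 probe stood at -2.06 but was detected on 5 of 16 arrays. The unstimulated arrays may have kept that probe, in which case it had to fall, so its value is no separate test. Over the alternatives in processing Rab19 stood between -4.09 and -2.03. Rab6b, the relative of Rab6a most abundant in neurons, was undetected after stimulation and at least 1.69-fold lower there. Without Rab6b, kept through the unstimulated arrays alone, 1 of 8 rose (12.5%), 4 fell (50%) and the median was -0.32. Of genes detected on at least 8 arrays, 33.7% rose and 37.4% fell. Rab33b, which binds the autophagy protein Atg16l1, fell by 0.53 ± 0.10 and Rab2a by 0.37 ± 0.08. The brightest Rab6a probe, detected on all 16 arrays, stood at -0.27 ± 0.16, not past the threshold. The other 2 detected Rab6a probes were dimmer. They gave -0.76, on 7 of 16 arrays and close to background, and -0.48, on 15 of 16 arrays, both called. Of the 4 measured Rabs of cilium transport or without a settled compartment, Rab28 fell by 0.76 ± 0.11 and Rab40c, part of a ubiquitin ligase, by 0.74 ± 0.10, and none rose.

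**Figure D3:**
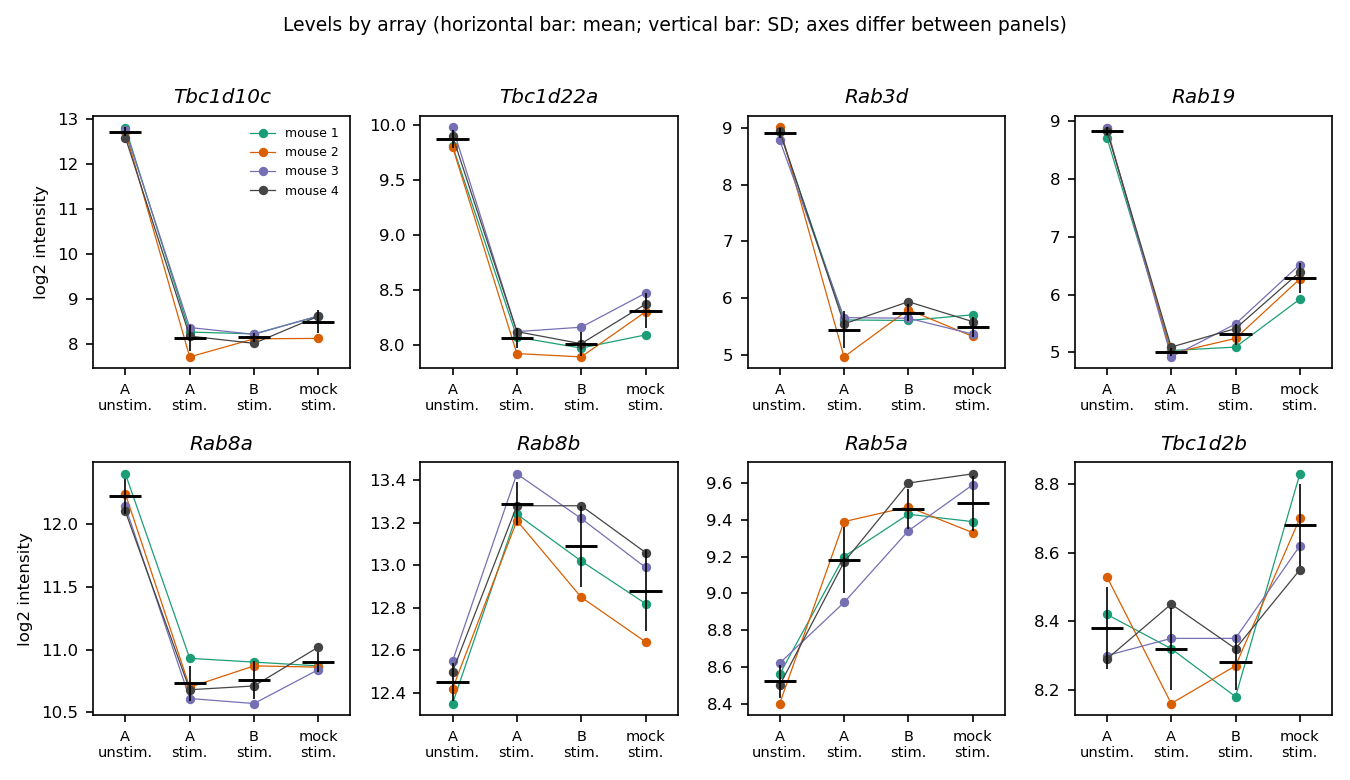
Log2 intensity (y axis, different in each panel) of 8 members on all 16 arrays in the 4 groups on the x axis, joined by mouse, with the mean as a horizontal and the SD as a vertical bar. Tbc1d10c, Tbc1d22a, Rab3d, Rab19 and Rab8a lie lower in every stimulated group than in unstimulated cells, Rab8b and Rab5a lie higher, and Rab19 and Tbc1d2b lie higher in mock than in both isoform groups.

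Of the 19 measured TBC1D genes 1 rose and 11 fell, with a median of -0.44. Of the 15 detected on at least 8 arrays 1 rose (6.67%) and 9 fell (60%), with a median of -0.44. Of all genes so detected, 33.7% rose and 37.4% fell. Tbc1d10c, also called carabin, inhibits calcineurin and Ras signals in T cells. It read 12.8, 12.71, 12.74 and 12.58 in unstimulated cells and 8.27, 7.72, 8.37 and 8.18 in stimulated isoform A cells, the widest gap of any member. The fall was 4.57 ± 0.14 log2 units (SE, n = 4; adjusted p = 1.96e-14 by limma). Tbc1d22a, which binds a Golgi adaptor protein, read 9.81, 9.8, 9.98 and 9.9 before and 8.07, 7.92, 8.12 and 8.12 after stimulation, again far apart. It fell by 1.81 ± 0.09 (3.51-fold; adjusted p = 1.84e-11 by limma), and its relative Tbc1d22b by 1.03 ± 0.19. Tbc1d5, a retromer-binding regulator of Rab7, read 7.38 ± 0.09 (SD, n = 4) before and 5.67 ± 0.35 after, and fell by 1.71 ± 0.16 (SE; 3.28-fold; adjusted p = 2.73e-08 by limma). Over the alternatives in processing Tbc1d5 stood between -2.2 and -0.79. Tbc1d2, another Rab7 inactivator, read 5.93 ± 0.15 (SD, n = 4) before stimulation, was undetected on all stimulated arrays and was at least 1.9-fold lower there, with no test given because the unstimulated arrays alone kept it. Tbc1d15, which also acts on Rab7, stood at -0.07 ± 0.12 and did not pass.

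Among the remaining TBC1D genes, Tbc1d7, a subunit of the tuberous sclerosis complex, fell by 1.09 ± 0.13 (2.12-fold). Tbc1d23, a tether between endosomes and the Golgi, fell by 1.26 ± 0.25 and was detected on 2 of 4 stimulated isoform A arrays. Tbc1d13, an inactivator of Rab35, fell by 0.55 ± 0.08, and Tbc1d19, undetected after stimulation of isoform A cells and kept on 7 arrays, was at least 1.25-fold lower. Tbc1d20, an inactivator of Rab1, fell by 0.44 ± 0.13, a call lost without mouse 4 (-0.32, adjusted p = 0.0578 by limma) and in mice 1 and 2 alone. Tbc1d14, a Rab11-binding protein of autophagy, fell by 0.42 ± 0.15 and was detected on 2 of 4 stimulated isoform A arrays. Its call was lost without mouse 1 (-0.41), mouse 2 (-0.43) or mouse 4 (-0.33). The same held in mice 3 and 4 alone and with no background correction. Tbc1d25, an inactivator of Rab33b, was the member of the class that rose. It read 7.66 ± 0.02 (SD, n = 4) before and 7.98 ± 0.21 after, a rise of 0.32 ± 0.10 (SE; adjusted p = 0.00837 by limma). The Tbc1d25 call was lost without mouse 3 (0.29) or mouse 4 (0.24) and in mice 1 and 2 alone, and its direction turned under median scaling (-0.13).

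The rest of the Rab machinery, taken from lists of regulators and effectors outside the member rule, moved in both directions. Of all genes 66.4% passed in this comparison, 29.6% higher and 36.8% lower. These lists were not counted with detection on at least 8 arrays. Of 6 measured Rab-inactivating proteins with other names, 4 rose and 1 fell, with Sgsm3 (an inactivator of Rab5) at 1.21 and Rabgap1 at -1.17 (adjusted p = 3.04e-07 and 1.42e-08 by limma). Of 24 measured exchange factors, 5 rose and 9 fell. Dennd3, which activates Rab12, rose by 3.25 ± 0.17 (9.53-fold), and Dennd1c, which activates Rab35, fell by 1.97 (adjusted p = 2.65e-11 and 9.66e-11 by limma). Of 6 genes for Rab prenylation, escort and extraction from membranes, 3 rose and 1 fell. Rabggtb, a subunit of the enzyme that prenylates Rabs, rose by 1.00, and Rabac1, a prenylated Rab acceptor, fell by 1.07 (adjusted p = 2.73e-09 and 2.46e-08 by limma). Of 23 measured effectors, 5 rose and 12 fell. Rilpl2, a protein of the RILP family, rose by 3.59 ± 0.09 (12.1-fold), and Sytl2, a Rab27 effector, fell by 2.31 ± 0.16 (adjusted p = 4.25e-15 and 8.82e-10 by limma). Its relatives Sytl1 and Sytl3 stood at -2.21 and 2.65, both called, and were added here after their values were seen.

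Markers also moved with stimulation. Cd3d, Cd3e, Cd3g and Cd28 fell by 0.60, 0.59, 0.65 and 0.34, while Zap70 rose by 1.13 and Lat by 0.60. Under median scaling the calls of Cd3d (-0.33) and Cd28 (-0.30) were lost, and that of Cd28 also without mouse 2 (-0.29) and in mice 3 and 4 alone (-0.32). The summed linear level of the 9 T cell markers was 41400 to 44600 in unstimulated and 33400 to 37500 in stimulated isoform A cells. The 9 CD8 and cytotoxic markers summed to 11600 to 17700 and 14100 to 21400, with Prf1 higher by 1.51 and Klrd1 at -0.61, the latter call lost without mouse 3 (-0.51) or mouse 4 (-0.56) and in mice 1 and 2 alone (-0.39). The 6 B cell markers summed to 65.5 to 99 and 49.7 to 75.5. Cd79b, undetected in stimulated isoform A cells, was at least 1.17-fold lower. It was kept through its 4 unstimulated arrays, so no test is given. The 7 macrophage and dendritic cell markers summed to 465 to 1460 and 609 to 1380, and the 3 erythroid markers to 34 to 66.6 and 60.5 to 116, with Car2, undetected in unstimulated cells, at least 1.79-fold higher. The part of these other cell types in the member changes was not tested.

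The second comparison asked which members differed between stimulated isoform A cells and stimulated mock cells. Isoform A cells had less Rab19 and Tbc1d2b and more Rab8b. These 3 of 58 members (5.17%) passed, against 4.86% of all genes, a share near the background. The groups did not overlap for 6 members (10.3%), against 10.1% of all genes. Rab19 read 5.92, 6.27, 6.52 and 6.39 in mock cells of mice 1 to 4, all above the 4 isoform A values given before and below the unstimulated ones. The difference was -1.27 ± 0.12 (SE, n = 4; lower in 4 of 4 mice; adjusted p = 1.6e-05 by limma), with 2 of 4 isoform A arrays above detection. It was -1.08 in mice 1 and 2 alone and -1.46 in mice 3 and 4 alone (adjusted p = 0.0241 and 0.00875 by limma). The second Rab19 probe, detected on 5 of 16 arrays, stood at -0.21 ± 0.12 and did not pass (adjusted p over the kept probes = 0.378).

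Tbc1d2b, a protein that binds Rab22, read 8.83, 8.7, 8.62 and 8.55 in mock cells against 8.32, 8.16, 8.35 and 8.45 in isoform A cells, without overlap. It was lower with isoform A, at -0.35 ± 0.09 (SE, n = 4; 1.28-fold; lower in 4 of 4 mice; adjusted p = 0.0339 by limma). Rab8b read 12.82, 12.64, 12.99 and 13.06 in mock cells, all under the isoform A values given before. It was higher with isoform A, at 0.41 ± 0.11 (1.33-fold; higher in 4 of 4 mice; adjusted p = 0.0395 by limma), and its second probe gave 0.55 ± 0.08 (adjusted p over the kept probes = 0.00131). Both calls on the brightest probes depended on having every mouse. Leaving out mouse 1, 2, 3 or 4 gave -0.30, -0.29, -0.38 and -0.44 for Tbc1d2b (adjusted p from 0.066 to 0.171) and 0.41, 0.36, 0.40 and 0.48 for Rab8b (adjusted p from 0.0909 to 0.188 by limma). In mice 1 and 2 alone and mice 3 and 4 alone, Tbc1d2b stood at -0.53 and -0.18 and Rab8b at 0.50 and 0.33, none of them past the threshold.

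Rab27a was the next member by p. It read 10.81, 10.78, 10.98 and 10.68 with isoform A and 10.21, 10.26, 10.63 and 10.42 in mock cells, without overlap. The difference of 0.43 ± 0.13 (higher in 4 of 4 mice) did not pass in the main model (adjusted p = 0.0622 by limma) and passed when mouse was added as a block (adjusted p = 0.00376). With that block 4 of 58 members passed (6.9%), 2 higher and 2 lower, and of all 8480 genes 375 were higher and 370 lower. Outside the member rule, 2 effectors of Rab27 differed, Sytl3 at 0.79 ± 0.15 and Sytl2 at -0.87 ± 0.16 (adjusted p = 0.00585 and 0.00491 by limma). The Sytl2 call was lost without mouse 4 (-0.82, adjusted p = 0.0695 by limma). The calls of Sytl2 and Sytl3 were both lost in mice 1 and 2 alone and in mice 3 and 4 alone. Of 24 exchange factors 1 passed, Dennd5a, higher by 0.51 ± 0.13 (adjusted p = 0.0341 by limma). This call was lost when any 1 mouse was left out (0.59, 0.43, 0.51 and 0.52 without mouse 1, 2, 3 and 4). With the mouse as a block, 2 exchange factors and 1 of 6 other Rab-inactivating proteins passed, all higher. Of 23 effectors 1 was then higher and 2 lower.

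The third comparison set stimulated isoform B cells against the same 4 mock arrays. Rab19 and Tbc1d2b were again the called members on the brightest probes, 2 of 58 (3.45%) against 1.86% of all genes. The 3 detected probes of Rab6a differed. Its brightest stood at -0.13 ± 0.16 and another at -0.16 ± 0.09, neither past the threshold. The third, on 15 of 16 arrays, passed at -0.58 ± 0.12 (adjusted p over the kept probes = 0.0225 by limma). The groups did not overlap for 5 members (8.62%), against 7.69% of all genes. Rab19 read 5.09, 5.24, 5.49 and 5.41 with isoform B, all under the mock values and detected on all 4 arrays. On this brightest probe the difference was -0.97 ± 0.12 (SE, n = 4; 1.96-fold; lower in 4 of 4 mice; adjusted p = 0.00041 by limma). The second Rab19 probe, detected on 5 of 16 arrays, stood at -0.09 ± 0.12 and did not pass (adjusted p over the kept probes = 0.877 by limma). Within mice 1 and 2 alone the brightest probe stood at -0.93 and missed the threshold (adjusted p = 0.0717), and within mice 3 and 4 alone it passed at -1.01 (adjusted p = 0.0309 by limma). Tbc1d2b read 8.18, 8.27, 8.35 and 8.32, under every mock array, and stood at -0.40 ± 0.09 (lower in 4 of 4 mice; adjusted p = 0.0335 by limma). Without mouse 1, 2, 3 or 4 it stood at -0.31, -0.38, -0.44 and -0.45 and did not pass. Rab27a came next by p and read 10.73, 10.68, 11.22 and 10.87 with isoform B. It stood at 0.50 ± 0.13 (higher in 4 of 4 mice; adjusted p = 0.0574 by limma, 0.00236 when blocked by mouse). With that block Tbc1d22a also passed, at -0.30 (adjusted p = 0.0344), which made 4 members in place of 2, against 3.99% of all genes. Rab8b stood at 0.22 ± 0.11 (adjusted p = 0.467 by limma), and its difference between isoform A and isoform B cells was 0.20 ± 0.11 (95% interval -0.04 to 0.43; adjusted p = 0.609). Outside the member rule, Sytl2 stood at -0.69 ± 0.16 (adjusted p = 0.0343 by limma), a call lost without mouse 1 (-0.66), mouse 2 (-0.74) or mouse 4 (-0.66). This call was also lost in mice 1 and 2 alone and in mice 3 and 4 alone. Sytl3 stood at 0.59 (adjusted p = 0.0536 by limma, 0.00948 when blocked by mouse). With that block 1 of 6 other Rab-inactivating proteins also passed, higher with isoform B.

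**Figure D4:**
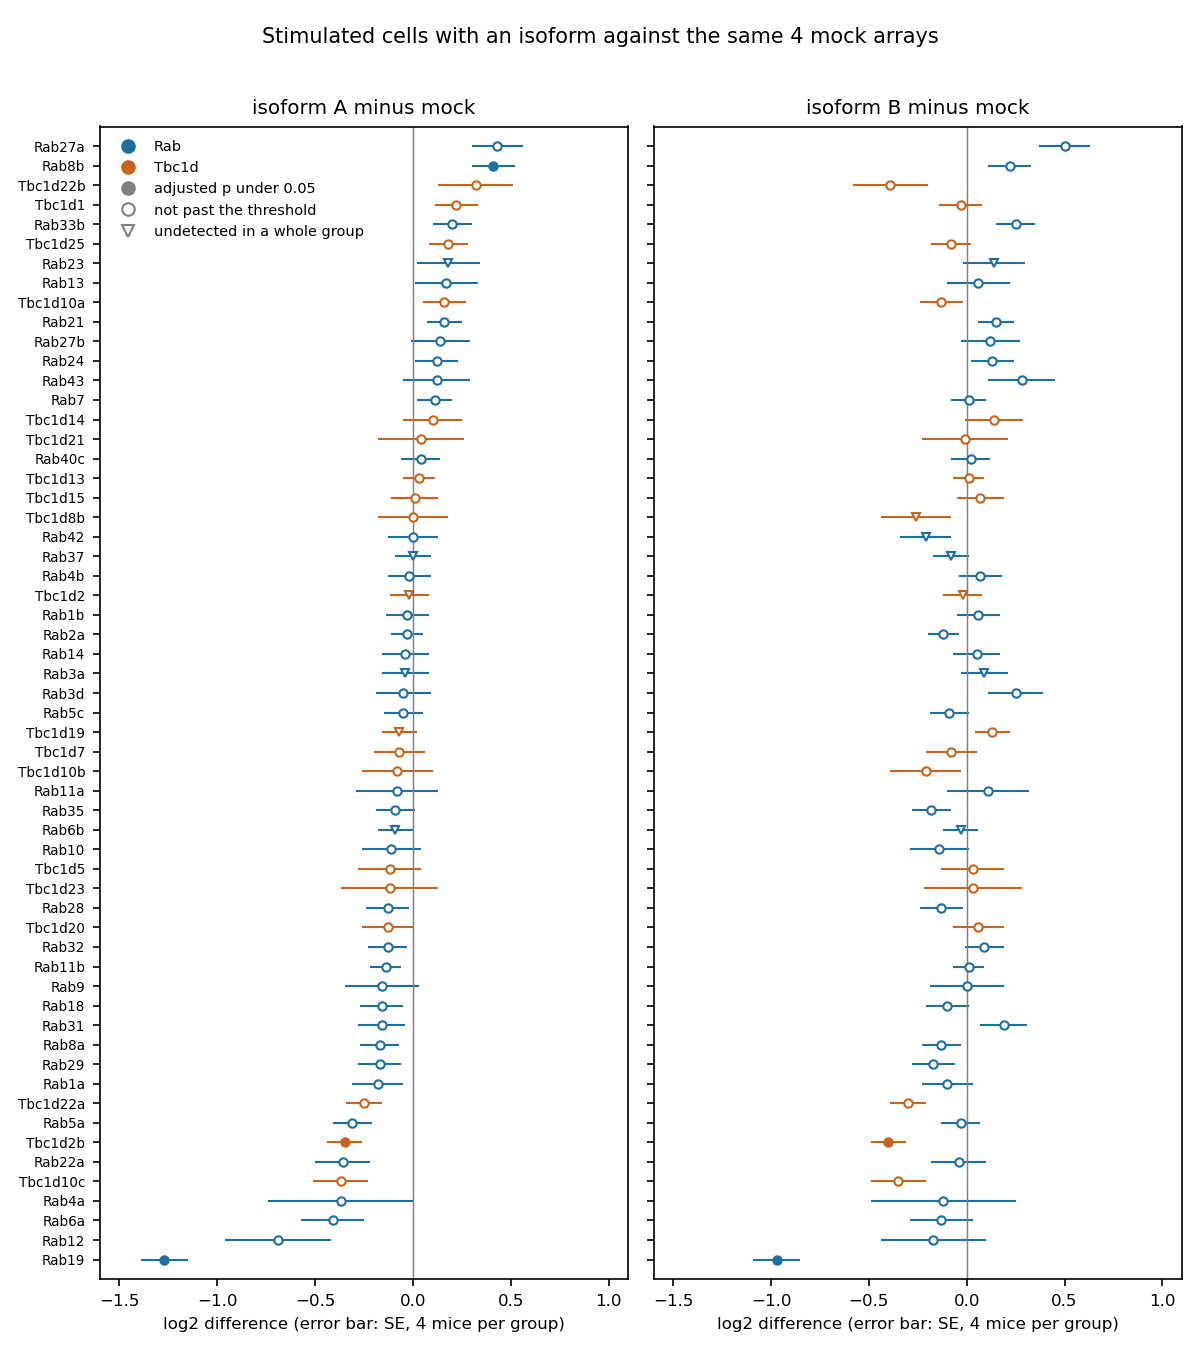
Log2 difference (x axis) of the 58 detected members between stimulated isoform A (left) or isoform B cells (right) and the same 4 stimulated mock arrays, with SE bars from a fit of 4 mice per group, filled where the adjusted p was under 0.05. Rab19 lies at -1.27 and -0.97 and Tbc1d2b at -0.35 and -0.40, both filled on both sides, while Rab8b at 0.41 is filled on the left alone. Triangles are members undetected on every array of 1 or both groups.

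The promoters of the 2 members called against mock with both isoforms are printed in the same way as the others.
Rab19, chr6:39381103-39381352, plus strand: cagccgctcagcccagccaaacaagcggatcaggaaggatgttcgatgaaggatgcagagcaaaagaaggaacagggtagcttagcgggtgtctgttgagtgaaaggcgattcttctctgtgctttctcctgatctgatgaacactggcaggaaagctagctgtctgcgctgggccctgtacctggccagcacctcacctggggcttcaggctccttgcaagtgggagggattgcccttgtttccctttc
Tbc1d2b, chr9:90270770-90271019, minus strand: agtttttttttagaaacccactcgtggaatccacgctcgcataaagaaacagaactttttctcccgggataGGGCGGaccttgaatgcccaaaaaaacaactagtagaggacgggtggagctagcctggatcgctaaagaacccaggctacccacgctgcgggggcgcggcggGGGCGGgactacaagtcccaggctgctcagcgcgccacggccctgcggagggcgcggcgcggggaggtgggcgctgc

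The Rab19 window held none of the 9 motifs searched, and its GC content was 55.2%. The Tbc1d2b window held 2 GC boxes, in capitals, and 2 matches to the EGR letters, left in lower case, 1 of which shares bases with a GC box.

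Erythroid markers differed beside these results. Hba-a1, an alpha globin gene, stood at -2.32 with isoform A and at -2.92 with isoform B, where 2 of 4 arrays detected it, against mock cells (adjusted p = 0.0148 and 0.00591 by limma), and Car2 at -0.93 with isoform A (adjusted p = 0.0179 by limma). The 3 erythroid markers summed to 167 to 1020 in mock cells against 60.5 to 116 with isoform A and 47.8 to 85.5 with isoform B, with Alas2 detected on no array of any group. The Hba-a1 calls were lost without mouse 2 (-2.31 and -2.83) or mouse 4 (-2.43 and -2.94), and with isoform A also without mouse 3 (-1.66). Cd28 stood at -0.39 with isoform A (adjusted p = 0.041 by limma), a call lost when any 1 mouse was left out (-0.38, -0.41, -0.32 and -0.47 without mouse 1, 2, 3 and 4). Car2 was lost without mouse 2 (-1.03), mouse 3 (-0.71) or mouse 4 (-0.88). T cell markers summed to 37100 to 40000 in mock and 36600 to 40400 in isoform B cells, and the CD8 and cytotoxic markers to 12600 to 20100 and 15500 to 20900. The B cell markers summed to 49.6 to 78.4 in mock and 58.4 to 78 in isoform B cells, and the macrophage and dendritic cell markers to 658 to 1430 and 677 to 1300. The part of these markers' cells in the member differences was not tested.

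The fourth comparison set isoform A against isoform B in stimulated cells, and no member passed in limma's test (0 of 58, against 0.212% of all genes). At an unadjusted p under 0.05 there were 11 members (19%), against 9.61% of all genes, and with the mouse as a block the number passing was again 0, against 0.542% of all genes. Tbc1d22b had the lowest p. It read 5.58, 5.36, 6.29 and 5.96 with isoform A and 5.2, 5.28, 4.82 and 5.04 with isoform B, where 3 of 4 arrays detected it, and the groups did not overlap. The difference was 0.71 ± 0.19 (95% interval 0.31 to 1.12; higher in 4 of 4 mice; adjusted p = 0.194 by limma), with 0.23 in mice 1 and 2 alone and 1.19 in mice 3 and 4 alone. Rab31 read 5.59 ± 0.21 (SD, n = 4) with isoform B and stood at -0.35 ± 0.12 (SE; lower in 3 of 4 mice; adjusted p = 0.31 by limma). Rab5a read 9.43, 9.47, 9.34 and 9.6 with isoform B and stood at -0.29 ± 0.10 (lower in 4 of 4 mice; adjusted p = 0.347 by limma), with overlapping groups. Rab19 stood at -0.30 ± 0.12 (95% interval -0.55 to -0.05; adjusted p = 0.384 by limma), without overlap.

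The last comparison set stimulated mock cells, which carried neither isoform, against unstimulated isoform A cells. It shares the unstimulated arrays with the first comparison and changes the stimulation and the transgene at once, which cannot be told apart. Of 58 members 37 passed, 6 higher and 31 lower. Of all genes 65.9% passed, 29.7% higher and 36.2% lower. The split of members was 3 higher and 33 lower under median scaling, against 1589 and 3583 of all genes, where it had been 2518 and 3069. With detection on at least 8 arrays, 7 of 48 members rose and 25 fell (66.7% in all), against 71% of 7346 genes, 34% higher and 37% lower. The members that rose were Rab5a by 0.97, Rab14 by 0.53, Rab1a by 0.49, Rab7 by 0.44, Rab8b by 0.42 and Tbc1d2b by 0.29. Tbc1d2b lost its call without mouse 1 (0.25, adjusted p = 0.0642) or mouse 3 (0.28, adjusted p = 0.0503 by limma) and turned to -0.06 under median scaling. Under that scaling Rab14 and Rab1a kept their direction and missed the threshold, at 0.40 and 0.14. The largest falls among members detected in both groups were Tbc1d10c at -4.21, Rab3d at -3.41, Rab19 at -2.56, Tbc1d5 at -1.59, Tbc1d22a at -1.57, Rab31 at -1.49 and Tbc1d22b at -1.35 log2 units. Tbc1d2, undetected in mock cells, was at least 1.95-fold lower. Tbc1d10c read 8.62, 8.13, 8.63 and 8.62 in mock cells, so that in these cells too its stimulated arrays lay far below the unstimulated ones. Rab27a fell by 0.69 (adjusted p = 0.000125 by limma), beside the -0.26 measured in isoform A cells. Rab8b rose by 0.42 here beside 0.84 in isoform A cells, and Rab19 stood at -2.56 here beside -3.82. Rab21 and Tbc1d20 passed at -0.24 and -0.31 and each lost its call when 1 mouse was left out, at -0.21 for Rab21 without mouse 1 and -0.21 for Tbc1d20 without mouse 2. Rab23, undetected in mock cells, was at least 1.06-fold lower. It was detected on 6 arrays and kept only because 4 of them were unstimulated, so no test is given. Its place among the 31 lower members was lost without mouse 1, mouse 2 or mouse 4 and with the mouse as a block. With that block Rab4b passed, at -0.25 (adjusted p = 0.0197 by limma).

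Genes outside the member rule and markers moved in that comparison as well, where 65.9% of all genes passed, 29.7% higher and 36.2% lower. Of the other Rab-inactivating proteins 3 of 6 rose and 1 fell, with Sgsm3 at 0.85 (adjusted p = 2.08e-05 by limma) and Rabgap1 at -1.15 (adjusted p = 1.9e-08 by limma), the Sgsm3 call lost under median scaling (0.38). Of the exchange factors 7 of 24 rose and 11 fell, with Dennd3 at 2.64 and Dennd5a at -1.96 (adjusted p = 4.3e-10 and 6.18e-10 by limma). Of the prenylation and escort genes 3 of 6 rose and 1 fell, with Rabggtb at 1.04 and Rabac1 at -1.17 (adjusted p = 1.85e-09 and 8.19e-09 by limma). Of the effectors 4 of 23 rose and 12 fell, with Rilpl2 at 3.73 and Sytl1 at -2.18 (adjusted p = 3.74e-15 and 3.4e-10 by limma). Among T cell markers Cd3d, Cd3e and Cd3g fell by 0.60, 0.38 and 0.74, while Zap70 rose by 1.35 and Lat by 0.84. The Cd3d and Cd3e calls were lost under median scaling (-0.37 and -0.24), and that of Cd3e in mice 3 and 4 alone (-0.31). Prf1, the perforin of cytotoxic granules, rose by 1.47 and Hba-a1 by 2.55 (adjusted p = 0.000458 and 0.000283 by limma). Car2, undetected in unstimulated cells, was at least 3.41-fold higher, and Cd79b, undetected in mock cells, at least 1.2-fold lower. No test is given for Cd79b, which was kept through its unstimulated arrays. The part of these markers' cells in the member differences was not tested.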

How the data were processed

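RNA of MALT1-deficient CD4+ T cells from 4 mice in 4 groups was measured on 16 Illumina bead arrays, 1 per mouse and group, after Trizol and column extraction and Ambion labelling per the labels' protocols. The deposited intensity values were unnormalized bead signals on a linear scale, from GenomeStudio 2011.1 per the submitters' processing notes, each with a detection p-value in the deposited file, per the file headers. The authors' deposited value table of the same arrays, also intensity on a linear scale, was background-subtracted (lowest value -20.47, column medians 8.065 to 8.109). Its columns ranked probes as the raw signals did, and its normalization method is not given in the sources used here. It served as an alternative.

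Background was corrected with normexp on the detection p-values (offset 16), followed by quantile normalization and log2 (limma 3.58.1, R 4.3.3). Of 25697 probes, 23978 had 1 gene symbol, 0 had several and 1719 had none. A detection p under 0.05 on at least 4 arrays kept 12344 probes, and the brightest probe per gene gave 8480 genes. The symbols of the 58 detected members matched the RefSeq table. A level is comparable between arrays for 1 probe, never between probes.

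Comparisons were contrasts in a limma fit of 4 group means over all 16 arrays (12 residual degrees of freedom, moderated test, 2-sided, Benjamini-Hochberg over the 8480 genes, threshold 0.05). The number of arrays limits the precision. Errors are SE of this fit unless SD is named. Its p-values set a difference against the spread between mice within groups and do not use the pairing by mouse. Each mouse's cells were taken once. P-values quoted with the mouse as a block are set against the spread left after a shift per mouse is removed. Arrays whose titles carry the same number come from 1 mouse, since each title number goes with 1 mouse identifier in the labels. The replicate numbers of the labels' description field differ from the title numbers for most samples and were not used. The correlation of deviations from the group means was 0.131 to 0.417 over 24 same-mouse pairs (mean 0.289) and -0.0962 on average over 72 other pairs, so a fit with the mouse as a block was run. A fold for a gene undetected in a whole group is written as at least its value against the dimmest level that passes detection, or the probe's own level where higher.

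Named in full were, per stimulation contrast, the 8 called members with the largest rise and the 8 with the largest fall, and, among stimulated groups, every called member or at least the 3 with the lowest p. From each pathway list the called gene with the largest rise and fall was named, and every called marker. Members, lists and tests were chosen with earlier results of these data known, so no count here is independent evidence. Alternatives were the block, the offset, the background correction, median scaling, the authors' table, other detection filters, the mean of a gene's probes, 2-group fits, pairs of mice, and leaving out each mouse or array. The fit was tested on simulated data with known changes. The simulated noise was independent between arrays, so the likeness of same-mouse arrays was not part of that test.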

Additional observations from a re-analysis of the deposited data

Results flagged for a closer look

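In 11 of 232 groups of 4 arrays, 1 array lay apart from the other 3 by Dixon's test of the gap over the range at its 95% level, where chance gives about 5% of groups. The values are log2 levels. In mouse 2, Rab3d read 4.97 in stimulated isoform A cells against 5.55 to 5.66 in the other mice, and Tbc1d2, undetected there, read 4.32 against 4.5 to 4.52. Also in mouse 2, Tbc1d10c read 8.13 in mock cells against 8.62 to 8.63. In mouse 1, unstimulated cells read 12.65 for Rab11b against 12.73 to 12.74, and 4.48 for Rab42 against 4.87 to 4.93. In mouse 3, stimulated isoform A cells read 12.27 for Rab11b against 12.5 to 12.52 and 5.55 for Rab43 against 6.08 to 6.19. Also in mouse 3, Rab33b read 7.96 in mock cells against 7.67 to 7.72, and Tbc1d10b read 4.9 in unstimulated cells against 5.26 to 5.33. In mouse 4, unstimulated cells read 8.62 for Rab33b against 8.42 to 8.45 and 7.15 for Tbc1d1 against 6.77 to 6.83.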

How the results depend on the processing

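Members called after stimulation numbered 32 to 38 over the alternatives and 31 to 37 with 1 mouse or array left out, against 37. For stimulated mock against unstimulated cells they numbered 32 to 37 and 34 to 39, against 37. For isoform A against mock the count of 3 became 4 with the mouse as a replicate block and 1 with median scaling. It was 1 with only the 2 groups fitted and 1 in mice 1 and 2 alone. With 1 mouse or array left out it was 1 to 4. For isoform B against mock the count of 2 became 4 with the mouse as a replicate block, 1 with median scaling, 1 with only the 2 groups fitted, 0 in mice 1 and 2 alone and 1 in mice 3 and 4 alone, and 1 to 2 with 1 mouse or array left out. For isoform A against isoform B it was 0 except in mice 3 and 4 alone, with 1, Tbc1d22b (adjusted p = 0.038 by limma). The direction of 3 named differences turned, all under median scaling: Tbc1d25 (-0.13) and Rab1a (-0.07) after stimulation, and Tbc1d2b (-0.06) in mock against unstimulated cells. The cause was not tested. Of 2885 values of 126 named results under an alternative, 2639 kept direction and side of the threshold, 237 lost a call, 6 gained one and 3 turned. With the mouse block no member changed call besides those given with the results. Without a detection filter 82 genes were tested and 36 called after stimulation, and with detection on at least 8 arrays 48 and 32. Signals near background limit Rab19, Rab3d, Rab31, Tbc1d5, Tbc1d14, Tbc1d22b, Tbc1d23, Rab12 and the members undetected after stimulation. The sizes of the Rab19, Rab3d, Rab31 and Tbc1d5 falls moved with the processing. Other falls moved too, among them Tbc1d23 (-1.64 to -0.41), Tbc1d22b (-1.56 to -0.44), Rab22a (-1.4 to -0.4) and Tbc1d7 (-1.56 to -0.69). Against mock, Rab19 ranged from -1.41 to -0.42 with isoform A and from -1.03 to -0.34 with isoform B. A retained call in mice 1 and 2 or 3 and 4 alone rests on 2 arrays per group.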

Other observations

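Rab4a, a Rab of fast recycling, varied by mouse more than by group. Its log2 levels in mice 1 to 4 were 6.76, 4.96, 6.46 and 5.93 in unstimulated cells and 6.41, 5.18, 6.19 and 5.55 in stimulated isoform A cells. They were 6.63, 5.42, 6.37 and 5.91 with isoform B and 6.48, 5.77, 6.72 and 5.83 in mock cells. In every group mice 1 and 3 lay above mice 2 and 4, and no comparison between groups passed the threshold for Rab4a. The pattern was noticed in the data and was not tested.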
